A study of Danio rerio with 9 samples.

Results

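The 10 genes described here encode peptide hormones of the pancreatic islet, the pituitary and the hypothalamus of the zebrafish. They are *ins* (insulin), *gcga* and *gcgb* (the paired glucagon genes), *prl* (prolactin), *gh1* (growth hormone), *cga* and *tshb* (the α-subunit and β-subunit of thyrotropin), *pomca* (the precursor of corticotropin and melanotropin), *hcrt* (hypocretin, also called orexin) and *oxt* (oxytocin). They were taken by symbol from a table of 33737 genes, and each symbol matched 1 row. Of the 10 genes, 9 reached 0.5 RPKM in at least 3 of the 9 libraries, the minimum that left 21982 genes to test. *pomca* did not.

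RNA came from pools of 30 whole embryos of the TuAB strain at 72 hours post-fertilization (hpf), with 3 pools in each of 3 groups. Wild-type replicate 3 has that number in its title, but its short label is that of replicate 2 with a suffix. It was used as replicate 3, and an alternative fit averaged it with replicate 2. The wild-type pools carried no *cep290* allele or injection that the labels name. *MZcep290-/-* pools lacked both maternal and zygotic Cep290 function through a 10-bp deletion that lies in exon 16. The *cep290ex25* morphants were injected soon after fertilization with a morpholino, an antisense oligomer that blocks splicing, at the splice donor of exon 25. Cep290 is a protein of the ciliary transition zone. The labels name no control-injected pool and no clutch, and the paper describes the wild-type embryos as relatives of the mutants, so injection or family cannot be told apart from the groups. P-values therefore measure only the spread between these pools.

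The endocrine cells that make these hormones are scarce in an embryo of this age. Insulin lowers and glucagon raises blood glucose, and both are made in the principal islet, beside the much larger exocrine pancreas. Growth hormone, prolactin and thyrotropin are made by related cell types of the anterior pituitary, and Pomc peptides by a separate lineage there. Oxytocin and hypocretin are made by small clusters of hypothalamic neurons, and oxytocin is released from axons that end in the posterior pituitary. In a whole-embryo pool, fewer cells of a type and less RNA per cell cannot be told apart.

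Between 5652757 and 7674248 reads lay on genes in the wild-type libraries, with 18662115 to 21299112 for the mutant libraries and 9050375 to 16150393 for the morphant libraries. RPKM (reads per kilobase of gene, relative to library size) was deposited, and all values were whole multiples of 1 read, so the reads behind each level are known. The floor used for a gene at 0 was 3 reads. Floors and intervals on reads cover counting error only, since the reads carry no molecular identifiers. Over these genes, the variance of the reads was 4.09 times that of counting alone in wild type, 1.38 times for the mutant and 4.59 times for the morphant. The level of *cep290* itself was 1.62 to 2.6 RPKM in wild type, 1.14 to 1.32 among mutant libraries and 3.36 to 6.15 among morphant libraries. A level summed over the whole gene reads neither the deletion nor the splice block, so it does not check the labels.

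*ins* was the highest of the 10 in every library and made up 55.7% to 71.7% of their summed level in RPKM. In wild type, the mean level was 47.4 RPKM ± 10.4 (SD, n = 3) for *ins*, 10.4 ± 3.87 for *gcgb* and 5.33 ± 1.79 for *oxt*. The *ins* libraries did not overlap those of *gcgb*, whereas *gcgb* and *oxt* overlapped. *prl* followed at 1.93 ± 1.18, *hcrt* at 1.23 ± 2.12, *gh1* at 1.14 ± 0.260, *gcga* at 0.951 ± 0.574, *tshb* at 0.834 ± 0.751 and *cga* at 0.616 ± 0.376. The *oxt* libraries lay above those of *prl*, and from *prl* downwards neighbours in this order did not differ beyond their spread. *oxt*, the third by mean level in wild type, was the fifth in the mutant (1.54 ± 0.436 RPKM) and the ninth in the morphant (0.295 ± 0.401 RPKM).

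**Figure D1:**
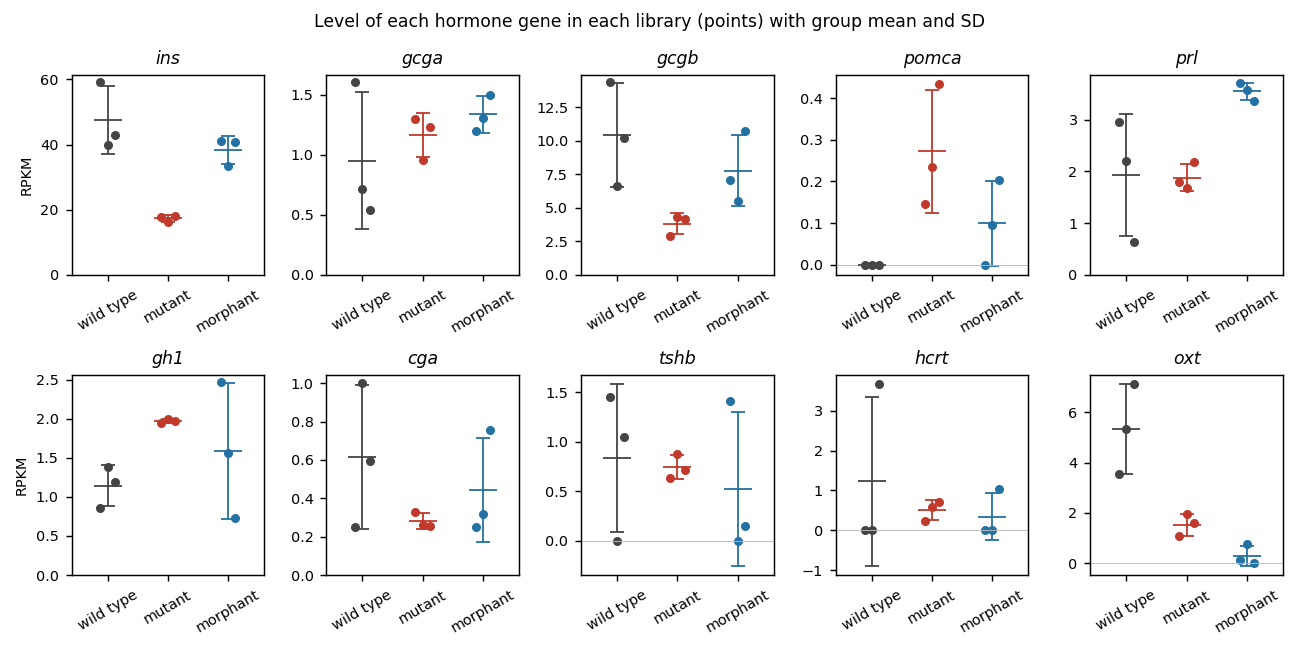
Level of each hormone gene in RPKM (linear vertical axis, own scale per gene) in the 3 wild-type, 3 mutant and 3 morphant libraries. Points are libraries, the horizontal mark is the group mean and the bar is 1 SD, which can reach below 0 where libraries lie at 0. The mutant libraries of *ins* and *gcgb* lie below every wild-type library, and the morphant libraries of *oxt* lie between 0 and 0.752 RPKM.

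The comparison of each *cep290* group with wild type asks which of these hormone transcripts differ when Cep290 is lost from the germ line or depleted acutely. A gene was called when its adjusted p in limma was under 0.05 and its fold change on log2(RPKM + 0.1) above 2. In the mutant, 2 of the 9 genes tested fell (*ins* and *gcgb*) and 0 rose, while 3 had an unadjusted p under 0.05. Of all genes tested, 12.1% were called lower and 10.4% higher in this comparison. In the morphant, 1 gene fell (*oxt*) and 0 rose, while 2 had an unadjusted p under 0.05, beside 14.9% of all genes called lower and 7.45% called higher. Between the mutant and the morphant, 1 gene was called higher (*oxt*) and 1 lower (*ins*), beside 3.48% and 2.4% of all genes. The median log2 difference over the 9 genes was 0.19 in the mutant against wild type, where that over all genes tested was -0.02. It was -0.36 in the morphant against wild type, where that over all genes was -0.05. Both comparisons use the same wild-type libraries, so they are not independent. The split of calls over all genes depended on scaling: with reads scaled by library totals, 6617 genes were called higher and 1050 lower in the mutant, beside 2286 and 2657 with the deposited scaling.

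**Figure D2:**
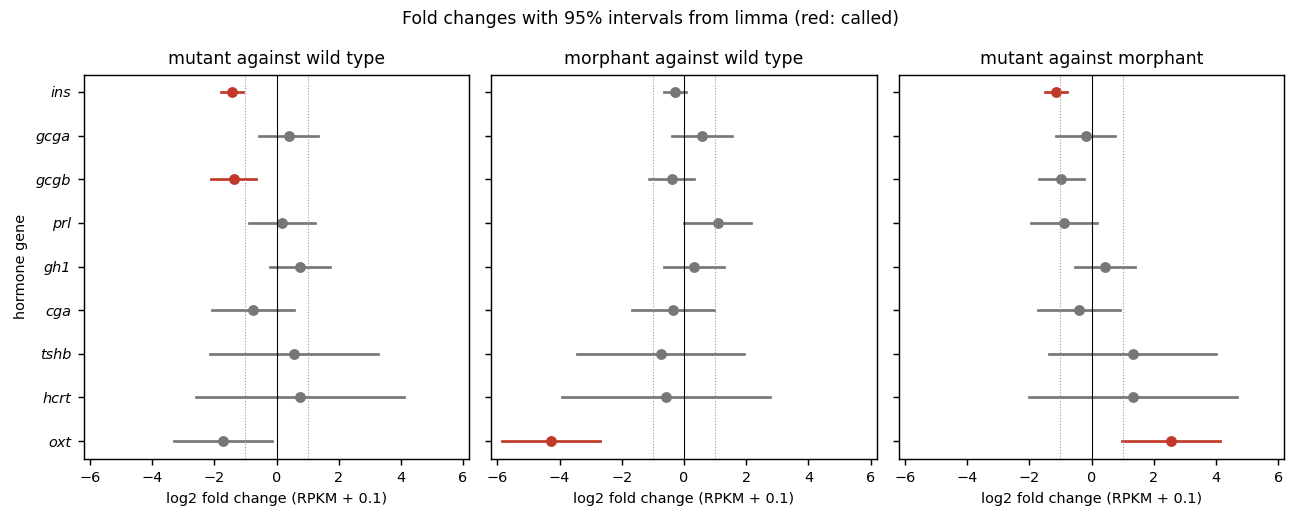
Log2 fold change on RPKM + 0.1 (horizontal axis) of the 9 hormone genes tested, in 3 panels: mutant over wild type, morphant over wild type, and mutant over morphant. Points are limma estimates, lines are 95% intervals, dotted lines mark the 2-fold threshold and red marks called genes. Only *ins* and *gcgb* are red in the first panel, only *oxt* in the second, and *ins* and *oxt* in the third.

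*ins*, the β-cell hormone gene, was lower in the mutant than in both other groups. It stood at 59.4, 40.02 and 42.9 RPKM for wild type (139, 94 and 117 reads) and at 17.6, 16.2 and 18.2 RPKM in the mutant (238, 190 and 231 reads). The morphant libraries stood at 41.1, 33.4 and 40.7 RPKM (215, 277 and 159 reads). Every mutant library lay below every wild-type and every morphant library, whereas the morphant and wild-type libraries overlapped. In limma, *ins* fell by 1.43 ± 0.15 (SE) on the log2 scale in the mutant against wild type, a 2.69-fold difference with an adjusted p of 0.000163. The 95% interval ran from -1.77 to -1.08. The mutant was also called lower than the morphant, at -1.14 ± 0.15 (adjusted p = 0.00195 in limma), a call that held in 18 of 20 alternatives and was lost with cyclic loess normalization (-0.89) and library read totals (-0.70). The morphant was not called different from wild type, at -0.29 ± 0.15 with an interval from -0.63 to 0.06 (adjusted p = 0.171). The exact permutation p, two-sided, was 0.10 for both comparisons with the mutant, which is the smallest that 3 libraries against 3 can give, and 0.273 after adjustment over the 30 exact tests of the hormone genes. With library read totals, *ins* in the mutant lay at -0.70 (adjusted p = 0.00760 in limma), under the 2-fold threshold, while the median of all genes moved to 0.68. Relative to that median it lay at -1.38. The call against wild type held in the other 19 of 20 alternatives. Among genes of similar mean level (16 to 64 RPKM), 8.44% were called lower in the mutant.

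*gcgb*, which encodes glucagon, also fell in the mutant. It stood at 14.4, 6.63 and 10.2 RPKM in wild type (41, 19 and 34 reads), at 2.91, 4.32 and 4.19 RPKM in the mutant (48, 62 and 65 reads) and at 7.05, 5.53 and 10.7 RPKM in the morphant (45, 56 and 51 reads). The mutant libraries lay below all the others, and the morphant overlapped wild type. In the mutant it fell by 1.38 ± 0.32 on the log2 scale, or 2.6-fold, with an interval from -2.11 to -0.65 and an adjusted p of 0.00973 in limma. Against the morphant, the mutant lay at -0.98 ± 0.32 with an adjusted p of 0.0807 and was not called. The morphant lay at -0.40 ± 0.32 from wild type (interval -1.13 to 0.33, adjusted p = 0.363). With library read totals, the mutant value was -0.66 (adjusted p = 0.116), or -1.34 relative to the median of all genes, and the call held in the other 19 of 20 alternatives. Among genes with a mean of 4 to 8 RPKM, 3.80% were called lower in the mutant.

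*gcga*, the other glucagon gene, was not called in any of the 3 comparisons. Its levels were 1.61, 0.712 and 0.536 RPKM in wild type, 1.30, 0.959 and 1.23 in the mutant and 1.2, 1.31 and 1.5 in the morphant. All 3 groups overlapped. The mutant lay at 0.39 ± 0.42 from wild type (interval -0.57 to 1.35) and the morphant at 0.58 ± 0.42 (interval -0.38 to 1.53) on the log2 scale. Wild-type levels rest on 18, 8 and 7 reads. Within a library, the ratio of *gcga* to *gcgb* was 0.0525 to 0.112 in wild type, 0.222 to 0.446 for the mutant and 0.140 to 0.237 for the morphant. Both *cep290* groups lay above wild type in this ratio without overlap (exact permutation p = 0.10 each, the smallest possible).

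Ratios within a library do not depend on how libraries are scaled. Relative to *ins*, *gcgb* was 0.166 to 0.242 in wild type, 0.165 to 0.267 for the mutant and 0.166 to 0.263 for the morphant, and the 3 groups overlapped (exact permutation p = 1 for either group against wild type). *sst1.1*, a somatostatin gene of the islet δ-cells, was 0.233 to 0.260 of *ins* in wild type and 0.375 to 0.402 in the mutant, without overlap (exact permutation p = 0.10). The morphant spanned 0.144 to 0.333. The ratios of the other somatostatin genes computed did overlap between the mutant and wild type. *sst1.2* was 0.0212 to 0.294 of *ins* in wild type and 0.192 to 0.277 in the mutant. *sst2* was 0.0382 to 0.307 of *ins* in wild type and 0.117 to 0.163 in the mutant. The *sst1.1* level itself was 14.3, 10.4 and 9.98 RPKM in wild type and 6.61, 6.23 and 7.30 in the mutant, at -0.76 ± 0.34 on the log2 scale and not called (adjusted p = 0.108 in limma). The ratio of *prl* to *ins* was 0.0148 to 0.0552 in wild type, 0.102 to 0.120 for the mutant and 0.0826 to 0.107 for the morphant. The ratio of *oxt* to *ins* was 0.0599 to 0.166 in wild type, 0.0612 to 0.120 for the mutant and 0 to 0.0225 for the morphant. Over the 8 ratios and 24 comparisons computed, the lowest exact p after adjustment was 0.24, so none passed.

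**Figure D3:**
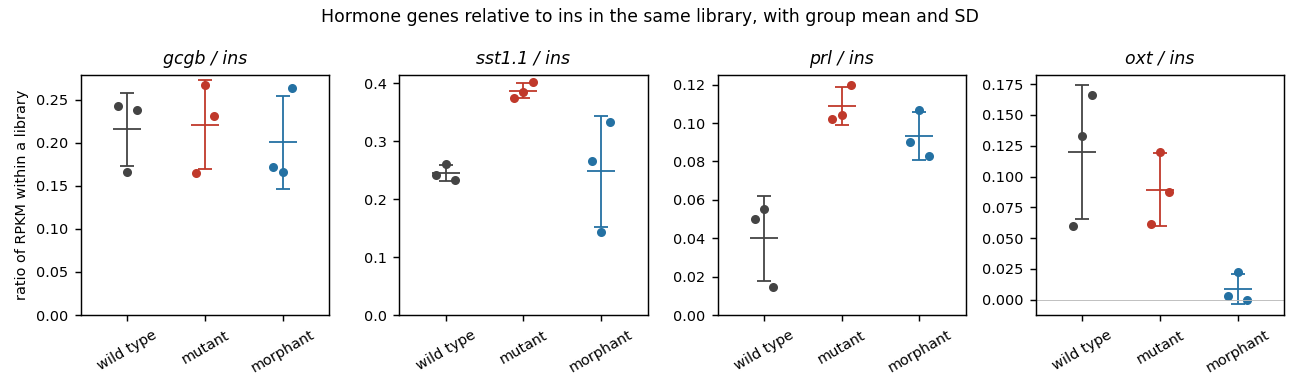
Ratio of the RPKM of *gcgb*, *sst1.1*, *prl* and *oxt* to that of *ins* in the same library (linear vertical axes). Points are the 3 libraries of each group, with the group mean and 1 SD. The *gcgb* ratios of the 3 groups overlap, the *sst1.1* ratio is highest in the mutant, and the *oxt* ratio is at most 0.0225 in the morphant. The mutant ratios of *sst1.2* and *sst2*, not drawn, overlap those of wild type.

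The other genes of the islet were mostly not called in the mutant. Of 7 other islet hormone genes tested, 0 rose and 0 fell there, beside 10.4% and 12.1% of all genes. Their median was -0.76, beside -0.02 over all genes. The summed level of all 11 genes in the list was 46.6 to 69.7 RPKM in wild type and 27.2 to 31.3 for the mutant, without overlap. For the morphant it was 33.7 to 47.65 RPKM. With a pseudocount of 1 or cyclic loess normalization, 1 was called lower in the mutant. Leaving out 1 library gave 0 to 2 called lower, and library read totals gave 0. In the morphant, 2 fell (28.6%, beside 14.9% of all genes) and 0 rose. The median was -0.35, beside -0.05 over all genes. With cyclic loess normalization, which matches the libraries' values level by level, 0 fell. The 2 genes were *pyyb*, a peptide YY gene, at -3.04 (adjusted p = 0.0330 in limma), and *ucn3l*, a urocortin 3 gene, which had 0 reads in all 3 morphant libraries and was at least 11.8-fold lower than in wild type (floor of 3 reads over the group). The *pyyb* call held in 12 of 20 alternatives and the *ucn3l* call in 18 of 19. In the mutant, *pyyb* was not called, but its libraries (0.403 to 1.14 RPKM) all lay below its wild-type libraries (3.74 to 5.37 RPKM). The mutant libraries of *ucn3l* overlapped those of wild type. The somatostatin genes *sst1.2*, *sst2* and *sst3* and the peptide YY gene *pyya* were not called in either comparison. Of 20 islet transcription factors, 2 rose and 0 fell in the mutant, and 0 rose and 1 fell in the morphant. The share that rose in the mutant was 10%, beside 10.4% of all genes. The share that fell in the morphant was 5%, beside 14.9% of all genes. *pax6b*, required for endocrine differentiation, stood at 5.33, 2.65 and 2.21 RPKM in wild type and at 8.60, 9.07 and 8.23 in the mutant (1.42 ± 0.29, adjusted p = 0.00505 in limma). Its paralog *pax6a* stood at 1.61 ± 0.22. Both are also expressed in eye and brain. *pdx1*, a pancreas and β-cell factor, fell in the morphant by 1.2 ± 0.33 and was not called in the mutant, at -0.64. Its mutant libraries (1.82 to 2.41 RPKM) still all lay below its wild-type libraries (3.01 to 4.06 RPKM). The morphant call held in 14 of 20 alternatives. Of all genes with a mean of 2 to 4 RPKM, 8.89% were called lower in the morphant.

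Of 17 exocrine pancreas genes tested (digestive enzymes and the acinar factor *ptf1a*), 9 were called lower in the mutant and 12 in the morphant, and 0 were called higher in either. Of the 17, 5 reached the minimum of 0.5 RPKM in the 3 wild-type libraries only, so they entered the test through the group where they are high, and 12 had a mean under 2 RPKM. With cyclic loess normalization, 2 and 4 were called lower and the list's median moved from -1.69 and -2.76 to -0.53 and -0.60. Leaving out 1 library gave 3 to 9 and 5 to 12, and library read totals gave 5 and 12. Among all genes with a mean of 1 to 2 RPKM, 13.6% were called lower in the mutant and 25.9% in the morphant. Over all genes tested, these shares were 12.1% and 14.9%. *ctrb1*, a chymotrypsinogen gene, lay at -2.44 and -4.35 on the log2 scale, and *amy2a*, an amylase gene, at -2.98 and -3.67. Both are among the 5. The summed level of all 25 genes in the list was 60.4 to 79.9 RPKM in wild type, 22.5 to 25.9 for the mutant and 17.5 to 24.0 for the morphant. The part of the exocrine levels in the islet result was not tested.

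None of the pituitary hormone genes among the 10 passed the test in either comparison with wild type. *prl* stood at 2.95, 2.21 and 0.634 RPKM in wild type (20, 15 and 5 reads), at 1.79, 1.68 and 2.18 in the mutant and at 3.70, 3.58 and 3.37 in the morphant. All morphant libraries lay above all wild-type and all mutant libraries. The morphant lay at 1.08 ± 0.47 on the log2 scale from wild type, with an interval from 0.01 to 2.14 and an adjusted p of 0.105 in limma, so *prl* was not called. Leaving out 1 library moved this value from 0.46 to 1.49. Of 20 alternatives, *prl* was called in 1, without wild-type replicate 1, at 1.49 (adjusted p = 0.0321 in limma). The mutant lay at 0.19 ± 0.47 (interval -0.88 to 1.25).

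*gh1* was 0.863, 1.38 and 1.19 RPKM in wild type, on 5, 8 and 8 reads, and 1.95, 1.99 and 1.97 RPKM in the mutant, on 65, 58 and 62 reads. The mutant libraries lay above all wild-type libraries and close to each other. The morphant libraries spanned 0.725 to 2.47 RPKM and overlapped both. The mutant lay at 0.76 ± 0.43 on the log2 scale (interval -0.21 to 1.72, adjusted p = 0.199 in limma) and the morphant at 0.31 ± 0.43 (interval -0.65 to 1.28), neither called. With library read totals, the mutant value was 1.44 (adjusted p = 0.0228 in limma) and was called, or 0.76 relative to the median of all genes. Within a library, *prl* was 0.534 to 3.42 times *gh1* in wild type, 0.840 to 1.1 times for the mutant and 1.5 to 4.64 times for the morphant, and the morphant lay above the mutant.

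The thyrotropin subunit genes rested on few reads. *cga* was 0.251, 1.00 and 0.594 RPKM in wild type, 0.327, 0.263 and 0.255 in the mutant and 0.253, 0.319 and 0.754 in the morphant, with overlap between all groups. The mutant lay at -0.76 ± 0.59 (interval -2.08 to 0.56) and the morphant at -0.36 ± 0.59 (interval -1.68 to 0.96). *tshb* was 1.46, 0 and 1.04 RPKM in wild type (6, 0 and 5 reads), 0.632, 0.871 and 0.716 in the mutant (15, 18 and 16 reads) and 1.41, 0 and 0.146 in the morphant (13, 0 and 1 reads). The *tshb* interval ran from -2.13 to 3.26 in the mutant and from -3.45 to 1.94 in the morphant, so both intervals hold a 2-fold change in either direction. In wild type, the highest levels of *cga* and *tshb* were in different libraries.

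*pomca* was at 0 reads in all 3 wild-type libraries. It had 5, 7 and 14 reads in the mutant (0.146, 0.235 and 0.435 RPKM) and 0, 2 and 2 in the morphant. In a single wild-type library, 3 reads correspond to 0.434 to 0.506 RPKM, and no mutant library lay clearly above that. Over the wild-type group, 3 reads correspond to 0.160 RPKM, and the pooled mutant level, 0.270 RPKM, was 1.69 times that floor. The counting interval of the pooled ratio of mutant to wild type starts at 1.28. With no filter *pomca* was tested and called higher in the mutant (adjusted p = 0.0410 in limma). The pooled morphant level was 0.0906 RPKM, under that floor, and no fold is given. The paralog *pomcb* was 2.55, 3.18 and 0 RPKM in wild type, 0, 0.888 and 0.822 in the mutant and 0.856, 0 and 0.956 in the morphant, and was not called in either comparison.

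Among other genes of the pituitary, *smtlb*, which encodes the growth hormone relative somatolactin β, was called lower in both comparisons. It stood at 4.11, 4.09 and 2.49 RPKM in wild type (17, 17 and 12 reads), at 0.461, 0.433 and 0.267 in the mutant (11, 9 and 6 reads) and at 0 reads in every morphant library. It reached 0.5 RPKM in the 3 wild-type libraries only and so entered the test through the group where it is high. It lay at -2.90 ± 0.45 in the mutant (adjusted p = 0.00121 in limma). Its pooled wild-type level, 3.51 RPKM, was 36.0 times the floor of 3 reads over the morphant group. *smtlb* was called in the alternatives in which it was tested, in both comparisons. Leaving out a wild-type library, merging wild-type replicates 2 and 3, or a minimum mean of 2 RPKM removed it from the test. Those fits therefore could not test the call. Of 12 pituitary transcription factors, 1 rose and 2 fell in the mutant, and 0 rose and 2 fell in the morphant. The share that rose in the mutant was 8.33%, beside 10.4% of all genes. The share that fell was 16.7% in each comparison, beside 12.1% and 14.9% of all genes. The gene that rose was *sox2*, a factor of progenitors in the pituitary and throughout the nervous system, at 1.58 ± 0.15 (adjusted p = 8.8e-05 in limma). The 2 that fell were the same in both comparisons and were named after their values were seen. They are *pou1f1*, the factor of the growth hormone, prolactin, thyrotropin and somatolactin lineages, at -2.37 and -3.77, and *tbx19*, the factor of the Pomc lineage, at -2.61 and -4.04. *tbx19* too reached the minimum in wild type only. Their mean levels were under 1 RPKM, where 29.8% of genes were called lower in the mutant and 43.3% in the morphant. The *pou1f1* call in the mutant held in 9 of 19 alternatives.

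*oxt* was lowest in the morphant and intermediate in the mutant. It stood at 3.55, 5.31 and 7.12 RPKM in wild type (12, 18 and 28 reads), at 1.08, 1.95 and 1.58 in the mutant (21, 33 and 29 reads) and at 0.133, 0.752 and 0 in the morphant (1, 9 and 0 reads). The 3 groups did not overlap. In the morphant it fell by 4.27 ± 0.70 on the log2 scale, with an interval from -5.85 to -2.69 and an adjusted p of 0.00198 in limma. The size depends on the pseudocount because 1 morphant library was at 0: it was -2.29 with a pseudocount of 1 and -5.64 with 0.01. Pooled over libraries, the morphant level was 0.0733 of wild type, with a counting interval from 0.0334 to 0.145. *oxt* was called lower in the morphant in 20 of 20 alternatives. Genes with a mean of 2 to 4 RPKM were called lower in the morphant in 8.89% of cases.

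In the mutant, *oxt* lay at -1.71 ± 0.70 from wild type (interval -3.29 to -0.13), with an adjusted p of 0.0863 in limma, and was not called. It was called in 4 of 20 alternatives. These were a pseudocount of 1, a fit on only the compared groups, and the fits without morphant replicate 2 or replicate 3, with adjusted p from 0.00684 to 0.0347. Pooled over libraries, the mutant level was 0.279 of wild type (counting interval 0.197 to 0.398). The mutant was called higher than the morphant, at 2.56 ± 0.70 (interval 0.98 to 4.14, adjusted p = 0.0413 in limma). That call held in 10 of 20 alternatives and was lost without any 1 of the 3 mutant libraries and without morphant replicate 1 or 3, where the value ran from 1.84 to 2.78 and the adjusted p from 0.0938 to 0.145. With the replicate number as a block it was also lost, at 2.56 with an adjusted p of 0.0502.

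*hcrt* was detected in 5 of the 9 libraries. Its level was 0, 0 and 3.68 RPKM in wild type, with all 10 reads in replicate 3, then 0.223, 0.596 and 0.709 in the mutant and 0, 0 and 1.03 in the morphant. The groups overlapped, and the interval of the log2 difference ran from -2.59 to 4.10 in the mutant and from -3.92 to 2.76 in the morphant. Wild-type replicate 3 was also the highest wild-type library for *avp* (3.10 RPKM against 0.401 and 0) and for *cart4* (8.55 RPKM against 0.569 and 0), both neuropeptide genes. *cart4* was named as the gene most like *hcrt* over these libraries and *avp* as that most like *tshb*. The peak that *cart4* shares with *hcrt* therefore follows from that choice. Neuropeptide genes differed in this: *npvf* was highest in that library (9.20 RPKM against 4.02 and 3.17), but *vip* was lowest (2.73 against 5.41 and 4.84).

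Neuropeptide genes other than *oxt* and *hcrt* were tested for 22 members. Of these, 1 rose and 3 fell in the mutant, and 0 rose and 6 fell in the morphant. The share that rose in the mutant was 4.5%, beside 10.4% of all genes. The shares that fell were 13.6% and 27.3%, beside 12.1% and 14.9% of all genes, and 14 of the 22 had a mean under 2 RPKM. Of the 22, 1 reached 0.5 RPKM in the 3 wild-type libraries only, so it entered the test through the group where it is high. With cyclic loess normalization, 2 and 3 fell. *npvf*, an RFamide peptide gene, fell in both, by 1.88 ± 0.40 and 1.71 ± 0.40. *vip*, vasoactive intestinal peptide, fell in the morphant by 1.88 ± 0.39, *trh*, thyrotropin-releasing hormone, by 1.41 ± 0.46, and *penka*, a proenkephalin gene, by 1.30 ± 0.36. *penka* also fell in the mutant, by 1.02 ± 0.36. The *trh* call held in 6 of 20 alternatives and the mutant *penka* call in 3 of 19. The list's median was -0.14 in the mutant and -1.08 in the morphant, but with cyclic loess normalization it was 0.32 and 0.15. *avp*, the vasopressin relative of *oxt*, had at most 17 reads in any library and was not called in either comparison.

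Of 15 hypothalamic transcription factors, 3 rose and 1 fell in the mutant, and 1 rose and 2 fell in the morphant. The shares that rose were 20% and 6.67%, beside 10.4% and 7.45% of all genes. Those that fell were 6.67% and 13.3%, beside 12.1% and 14.9%. Of the 15, 1 reached 0.5 RPKM in the 3 wild-type libraries only, so it entered the test through the group where it is high. *fezf2*, which acts in the development of hypothalamic neurons, was 1.68, 0.672 and 1.54 RPKM in wild type, 5.49, 5.48 and 6.22 in the mutant and 3.62, 4.40 and 3.57 in the morphant, and rose in both. *nkx2.1a*, a ventral forebrain factor, rose in the mutant by 1.60 ± 0.38, and *pou3f2a* by 1.34 ± 0.26. *rx3*, an eye and hypothalamus factor, fell in the morphant by 1.45 ± 0.47, a call that held in 5 of 20 alternatives. *otpa* and *otpb*, which specify oxytocin neurons, were looked at after their values were seen. They lay at 0.52 and 0.92 in the mutant and at -0.33 and 0.39 in the morphant, none called. Neuron markers rose in the mutant for 5 of 16 (31.25%, beside 10.4% of all genes) and fell for 0. Most of these markers have a mean of 8 to 64 RPKM. Of all genes with a mean of 8 to 16 RPKM, 17.9% were called higher in the mutant, and 15.6% of those at 16 to 64 RPKM. Among those that rose were *elavl3* (2.1 ± 0.11) and *snap25a* (1.42 ± 0.13). The other 11 were not called, and some lay lower, such as *stmn2b*, at 59.4 to 62.6 RPKM against 75.7 to 105 in wild type. In the morphant, 0 rose and 3 fell (18.8%, beside 14.9% of all genes). *elavl3* was not called there, though its morphant libraries (19.5 to 24.1 RPKM) lay above its wild-type libraries (11.5 to 13.6 RPKM). The summed level of the 17 markers was 547 to 657 RPKM in wild type, 782 to 822 for the mutant and 457 to 459 for the morphant, while *gap43* was at 0 in every library. The part of neuron content in the *oxt* result was not tested.

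Genes of prohormone processing and the secretory granule, which endocrine cells and neurons share, showed 1 called higher and 0 lower of 17 in the mutant, and 0 higher and 4 lower in the morphant. The mutant share called higher was 5.88%, beside 10.4% of all genes, while 12.1% of all genes were called lower there. The morphant share called lower was 23.5%, beside 14.9% of all genes. Of all genes with a mean of 1 to 2 RPKM, where 4 of the 17 lie (*pcsk1* and *ptprnb* among them), 25.9% were called lower in the morphant. *pcsk1nl*, an inhibitor of prohormone convertase, rose in the mutant from 2.41, 1.48 and 4.42 RPKM to 9.18, 9.12 and 9.36. In the morphant, *pcsk1*, a prohormone convertase, fell by 2.03 ± 0.53, *ptprnb*, a granule membrane protein gene, by 2.57 ± 0.44, and *cadpsb*, a factor for granule priming, by 1.26 ± 0.15. *cadpsb* had well-separated libraries, at 8.77, 9.52 and 10.3 RPKM in wild type and 3.76, 4.59 and 3.47 in the morphant.

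Among hormone receptors, 1 of 26 rose and 5 fell in the mutant, and 0 rose and 8 fell in the morphant. The share that rose in the mutant was 3.85%, beside 10.4% of all genes. The shares that fell were 19.2% and 30.8%, beside 12.1% and 14.9% of all genes. Of the 26, 2 reached 0.5 RPKM in the 3 wild-type libraries only, so they entered the test through the group where they are high. Means were under 1 RPKM for 9 of the 26, a level at which 29.8% and 43.3% of all genes were called lower. *thrb*, a thyroid hormone receptor, rose in the mutant by 1.12 ± 0.25, a call that held in 17 of 20 alternatives, and *mc4r*, a melanocortin receptor, fell by 1.68 ± 0.48, which held in 12 of 19. *prlrb*, a prolactin receptor, fell in the morphant by 1.18 ± 0.40, and *mc3r* by 3.63 ± 1.23, with 55 of its wild-type reads in replicate 1 and 2 and 5 in the others. The *prlrb* and *mc3r* calls held in 2 of 19 and 4 of 16 alternatives. The list's median was -0.35 in the mutant and -0.95 in the morphant, and it turned to 0.10 and 0.16 with cyclic loess normalization, under which 0 receptors rose, 1 fell in the mutant and 0 fell in the morphant.

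**Figure D4:**
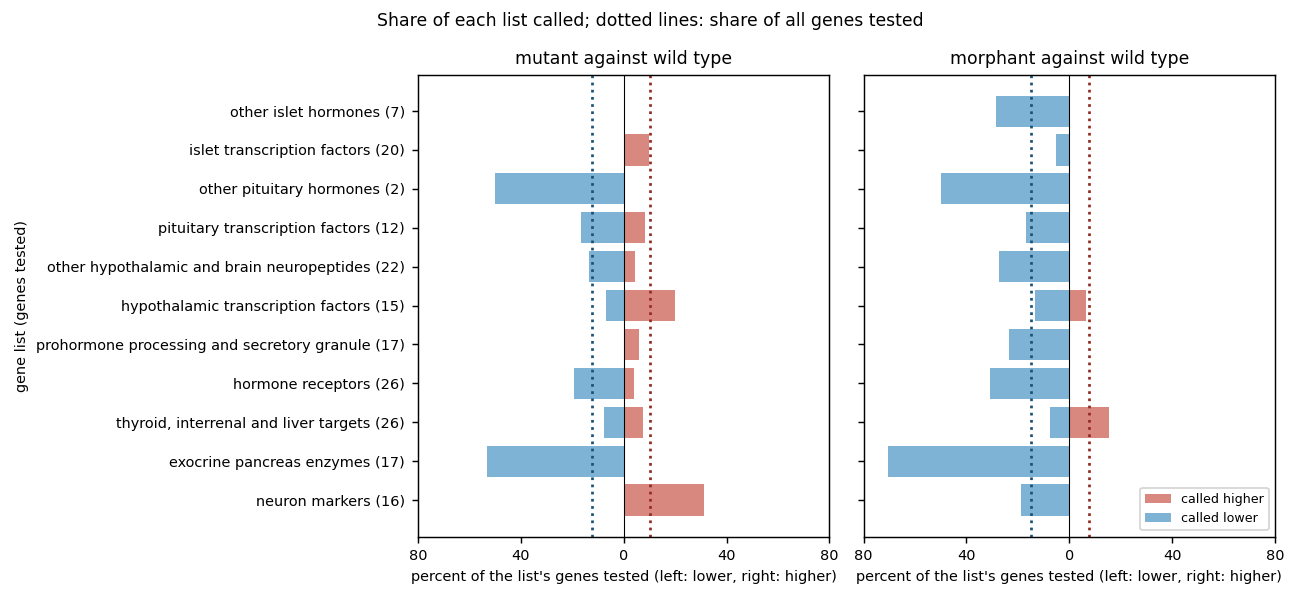
Percent of the genes tested in each of 11 gene lists called higher (right of 0) or lower (left of 0) in the mutant and in the morphant against wild type, with the number tested in brackets. Dotted lines mark the share of all genes tested, 10.4% higher and 12.1% lower in the mutant and 7.45% and 14.9% in the morphant. Exocrine enzymes lie beyond the line for lower calls in both panels (9 and 12 of 17, but 2 and 4 with cyclic loess normalization), and neuron markers beyond the line for higher calls in the mutant (5 of 16).

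Each of the 9 hormone genes tested was set against 180 genes of these lists by the Pearson correlation of log2(RPKM + 0.1) over the 9 libraries, as a description. The points share their group and depth. For *ins*, the most alike was *pck1*, which encodes a gluconeogenic enzyme (r = 0.947, rho = 0.833), and it was also the most alike for *gcgb* (r = 0.874, rho = 0.883). *pck1* stood at 29.2 to 32.6 RPKM in wild type, 13.5 to 15.3 for the mutant and 27.2 to 36.9 for the morphant, and like *ins* it fell in the mutant (-1.11 ± 0.12, adjusted p = 0.000175 in limma). Because *pck1* was picked by its likeness to *ins* over these groups, this fall is not a separate result. For *oxt* it was *crhr2*, a corticotropin-releasing hormone receptor (r = 0.961, rho = 0.883), which had 0 to 16 reads in a library and whose morphant value turned from -2.41 to 0.07 with cyclic loess normalization. For *prl* and *gcga* it was *fkbp5*, a glucocorticoid-responsive gene (r = 0.923 and 0.881), at 0.437 to 5.08 RPKM in wild type, 3.51 to 4.46 for the mutant and 5.74 to 7.59 for the morphant. For *gh1* it was *hmx2* (r = 0.881), for *cga* *gata2a* (r = 0.857), for *tshb* *avp* (r = 0.701) and for *hcrt* *cart4* (r = 0.655).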

How the data were processed

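PolyA RNA of whole-embryo pools was made into directional libraries and sequenced as 50-bp single-end reads. The authors used STAR for alignment to the Zv9 genome build, HTSeq for counts per gene and edgeR for their tests. Versions, annotation release and counting options are not given in the sources used here, so genes with close copies or overlapping neighbours can share reads. The authors deposited 1 table of RPKM values, relative to normalized library sizes (0.737 to 0.859 of the read totals in wild type, 1.31 to 1.32 in the mutant, 0.894 to 1.07 in the morphant). All values were whole reads at a tolerance of 0.01. No per-sample column was left unused (0 columns).

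Values were transformed to log2(RPKM + 0.1). Genes at 0.5 RPKM or more in 3 or more libraries were fitted with limma 3.58.1 (R 4.3.3; moderated test with a mean-variance trend) as 3 group means over all 9 libraries, with Benjamini-Hochberg adjustment over all genes tested. The fit was tested on simulated data. Single genes were also tested by two-sided exact permutation (scipy 1.17.1), with counting intervals at 95%. Values after ± are SE for differences and SD for levels. Other steps used Python 3.11.15 with matplotlib 3.10.9, pandas 2.3.3 and numpy 2.4.6.

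The hormone genes and the 11 lists were chosen with earlier results of these data known. All 10 hormone genes were named, with up to 4 genes per list that were called in either comparison with wild type, had a mean of at least 1 RPKM and changed most, the tested members of the islet and pituitary hormone lists, and the gene most like each hormone gene. Alternatives were other pseudocounts (1 and 0.01), no filter or a mean of at least 2 RPKM, other scalings, a weight per group, only the compared groups, a replicate block, wild-type replicates 2 and 3 as 1 sample, adjusted p alone, and leaving out each library. Symbols are those of the deposited table, and a names table paired all 10 identifiers. The names table is of a later build, so coordinates were left out.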

Additional observations from a re-analysis of the deposited data

How the results depend on the processing

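The number of hormone genes called moved in the mutant against wild type to 1 with library read totals, where *ins* and *gcgb* were not called and *gh1* was called higher. It was 3 with a pseudocount of 1 or only the compared groups, which also called *oxt* lower, and with no filter, which also called *pomca* higher. In the morphant against wild type it moved to 3 with cyclic loess normalization, which also called *gcga* and *cga* higher. In the mutant against the morphant it moved to 1 with a pseudocount of 1, a pseudocount of 0.01, no filter, library read totals or the replicate block, and to 0 with cyclic loess normalization. Leaving out 1 library gave 2 to 3 for the mutant against wild type (3 without morphant replicate 2 or 3), 1 to 2 for the morphant against wild type (2 without wild-type replicate 1) and 1 to 2 for the mutant against the morphant. Same-numbered libraries correlated at -0.0611 to 0.0291 in their deviations, which gave no sign of pairing but cannot exclude it. The replicate block changed no other call of these genes.

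The direction of these uncalled differences depended on the processing. In the mutant against wild type, *prl* lay at -0.13 and *tshb* at -0.24 with wild-type replicates 2 and 3 as 1 sample, *cga* at 0.92 with cyclic loess normalization and *hcrt* at -0.16 with a pseudocount of 1. In the morphant against wild type, *ins* lay at 0.0022 with library read totals, and *cga* at 2.34, *tshb* at 1.79 and *hcrt* at 2.83 with cyclic loess normalization. *gcga* in the mutant against the morphant lay at 0.22 with library read totals. The cause of these reversals was not tested. Leaving out 1 library moved the mutant value from -0.43 to 0.60 for *prl*, from -0.68 to 1.30 for *tshb* and from -0.12 to 2.50 for *hcrt*, and the morphant value from -0.0642 to 0.76 for *gh1*, from -2.0 to 0.12 for *tshb* and from -1.75 to 1.16 for *hcrt*. Over all genes, the calls lower in the mutant moved from 2657 to 1382 and those in the morphant from 3273 to 914 with cyclic loess normalization, and to 1015 and 622 with a mean of at least 2 RPKM. With at most 7674248 reads on genes in a wild-type library, *pomca*, *hcrt* and *tshb* had the fewest wild-type reads of the 10 genes, at 0, 10 and 11. Whether depth or the spread between pools limits these genes was not tested.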

Other observations

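Genes on which these hormones act were read as a list of 26 thyroid, interrenal (the fish adrenal) and liver genes that passed the filter. Of these, 2 rose and 2 fell in the mutant, and 4 rose and 2 fell in the morphant. The shares that rose were 7.69% and 15.4%, beside 10.4% and 7.45% of all genes. Those that fell were 7.69% in each comparison, beside 12.1% and 14.9%. The list's median was -0.18 and -0.07, and with cyclic loess normalization it turned to 0.38 and 0.59. *igf2b*, an insulin-like growth factor gene, stood at 2.19, 2.79 and 5.44 RPKM in wild type, at 12.4, 11.6 and 11.8 in the mutant and at 13.9, 15.4 and 13.1 in the morphant, and rose in both. *igfbp1a*, which encodes a secreted protein that binds insulin-like growth factors, stood at 7.41, 9.63 and 11.6 RPKM in wild type and at 26.8, 31.4 and 27.7 in the morphant, where it rose by 1.60 ± 0.16 (adjusted p = 0.000194 in limma). In the mutant it was 7.62 to 7.86 RPKM and was not called. *duox*, the oxidase that supplies hydrogen peroxide for thyroid hormone synthesis, fell in both. It stood at 2.11 to 2.88 RPKM in wild type, 0.272 to 0.337 in mutants and 0.406 to 0.776 in morphants. With cyclic loess normalization, 0 genes of the list were called lower in the morphant, so that *duox* call was lost. *hsd3b1*, a steroidogenic enzyme gene, rose in the morphant by 1.55 ± 0.52 (adjusted p = 0.0455 in limma), a call that held in 5 of 19 alternatives.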
